A study of Mus musculus with 6 samples.

Results

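Venous endothelial cells of the fracture callus were taken from single-cell RNA libraries as the endothelial barcodes that carried the venular genes Selp and Ackr1. A barcode was kept with at least 1000 unique molecular identifiers (UMIs, each standing for a captured transcript) and at most 10% mitochondrial UMIs. It counted as endothelial with at least 5 UMIs summed over Pecam1, Cdh5, Kdr, Emcn and Plvap, at most 1 UMI of the leukocyte gene Ptprc and fewer than 3 of the pericyte gene Rgs5, and as venous when Selp and Ackr1 together had at least 2 UMIs and more than the arterial genes Gja5, Sox17 and Hey1 together. These rules found 1671 venous cells among 5848 endothelial cells and 46944 barcodes in all. The venous cells numbered 121, 784 and 273 in controls 1 to 3 and 45, 232 and 216 in labelled knockout 1 to 3. The cells were chosen by the UMI counts of the 12 genes in these rules, so the values of those genes are a description without a test.

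The mice were 12 weeks old and, by the study's methods, male, and calluses of the fractured femur were dissociated at 14 days post fracture (dpf). The 3 control libraries came from Piezo1 f/f mice (labelled wt), and the 3 other libraries from mice labelled knockout (Piezo1Col2a1, Col2a1CreERT2 with Piezo1 f/f). From day 5 the mice received tamoxifen, a daily dose of 75 mg/kg for 5 days. The Cre is driven by Col2a1, a gene of chondrocytes, so endothelial cells were not the targeted cells. The sample labels of the knockout group write the gene as Piezo3 and the series text as Piezo1, and the genotypes above follow the study's methods. The labels describe a callus taken from each mouse. The study's text gives differing numbers of mice for this experiment, and the groups and n here follow the labels. Libraries held 57626530 to 103784364 UMIs over 3482 to 11447 barcodes, and the venous cells contributed 1443339, 8515094 and 2092535 UMIs in controls 1 to 3 and 937710, 2151720 and 2941720 in labelled knockout 1 to 3.

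Veins and venules return blood from capillaries, and postcapillary venules are the main site where leukocytes leave the circulation. Their endothelium stores P-selectin (Selp) and von Willebrand factor (Vwf) in Weibel-Palade bodies, displays the atypical chemokine receptor Ackr1, and on stimulation by cytokines makes E-selectin (Sele), Icam1 and Vcam1, which slow and hold leukocytes. The nuclear receptor Nr2f2 maintains venous identity, whereas Notch signalling through Dll4 maintains arterial identity. In bone, endothelial cells bring blood to the callus and also release factors that act on cells of the bone lineage.

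The promoters of the pair of genes that chose the cells, and of Sele, first by log2 difference among genes higher in venous cells with at least 50 CPM (UMIs of a gene per 1000000 UMIs), are shown because the pair chose the cells and Sele is the highest-ranked gene by that rule. The sequences are the 250 bases before the annotated start on GRCm38.p6, from RefSeq, each 5′ to 3′ on the gene's own strand (Selp chr1:164115014-164115263, plus; Ackr1 chr1:173333504-173333753, minus; Sele chr1:164047984-164048233, plus). Capitals mark matches on either strand to the AP-1 letters TGANTCA, which read alike on both strands, and to the nuclear receptor letters AGGTCA.
Selp: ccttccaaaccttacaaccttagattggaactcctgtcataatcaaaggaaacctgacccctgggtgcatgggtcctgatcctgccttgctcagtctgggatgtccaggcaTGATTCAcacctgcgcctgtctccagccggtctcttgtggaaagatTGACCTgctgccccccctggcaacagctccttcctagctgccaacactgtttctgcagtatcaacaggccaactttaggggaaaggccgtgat
Ackr1: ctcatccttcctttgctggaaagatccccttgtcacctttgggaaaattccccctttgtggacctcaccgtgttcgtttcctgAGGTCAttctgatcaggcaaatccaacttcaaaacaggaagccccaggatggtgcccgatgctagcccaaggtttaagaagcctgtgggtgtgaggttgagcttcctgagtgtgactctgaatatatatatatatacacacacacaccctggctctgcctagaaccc
Sele: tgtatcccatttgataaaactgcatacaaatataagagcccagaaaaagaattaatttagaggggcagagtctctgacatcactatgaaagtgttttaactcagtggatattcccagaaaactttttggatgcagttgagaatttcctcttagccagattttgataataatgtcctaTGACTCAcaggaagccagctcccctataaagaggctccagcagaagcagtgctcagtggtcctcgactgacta
The AP-1 letters stood 139 to 133 bases before the start of Selp and 73 to 67 before that of Sele. The letters AGGTCA, or TGACCT on the other strand, stood 93 to 88 bases before the start of Selp and 167 to 162 before that of Ackr1. Among 32851 promoter windows of the same length, 6.75% held the AP-1 letters and 14% the letters AGGTCA. A fixed pattern of letters searched for NF-kB (in 1.41% of windows) and AGATAA of GATA factors (in 9.99%) were not in these 3 windows. NF-kB sites with other letters were not searched for, so these windows may hold them. Selp (chr1:164115264-164150026) and Sele (chr1:164048234-164057677) lie near each other on chromosome 1.

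Some libraries stood apart before any comparison. In the venous cells of labelled knockout 3, the X-inactivation transcript Xist had 867 CPM and the Y-linked gene Ddx3y 0, against at most 1.08 CPM of Xist and 79.8 to 137 CPM of Ddx3y in the 5 other libraries. This goes against the description of the mice as male. The main counts of called genes and the differences in share are also given without this library. RNA of cartilage cells was unequal as well. The summed CPM of 12 chondrocyte markers in venous cells was 6143, 2251 and 1145 in controls 1 to 3 and 15096, 321 and 14950 in labelled knockout 1 to 3. Col2a1, the most abundant of them, had 2486, 1212 and 318 CPM in the controls and 6643, 16.8 and 6939 in the labelled knockouts. In the other endothelial cells of control 1 the same list summed to 32101 CPM, against the 6143 of its venous cells. Between 4 and 36 cell barcodes were found in both libraries of a pair, at most 0.383% of the smaller library.

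Selp was found in nearly every venous cell and Ackr1 in most. Selp UMIs were present in 94.4% to 99.6% of venous cells and in 11.4% to 17.2% of the other endothelial cells. Ackr1 UMIs were present in 58.2% to 80% of venous cells and in at most 4.26% of the others. As a background, cells with at least 2 Ptprc UMIs and none of the 5 endothelial genes carried 2 or more UMIs of Selp and Ackr1 in 0.806%, 0.54% and 0.0639% of cells in controls 1 to 3 and in 4.72%, 0.283% and 0% in labelled knockout 1 to 3. The last was 0 of 633 cells, which allows a share of up to 0.474%. The median depth of venous cells was 9748, 9410.5 and 5973 UMIs in the controls and 11870, 7160 and 11127.5 in the labelled knockouts, and that of the background cells was 3259.5 to 12275.5.

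On the level scale, the summed venous cells held 698, 1792 and 762 CPM of Selp in the controls and 1005, 474 and 722 in the labelled knockouts. Ackr1 stood at 338, 445 and 273 CPM in the controls and at 350, 357 and 326 in the labelled knockouts. Control 2 was highest for both genes. Among the general endothelial genes, Pecam1 (986 to 1663 CPM), Plvap (1398 to 1983 CPM), which forms the diaphragms of fenestrae, and Emcn (661 to 1499 CPM), a sialomucin of veins and capillaries, were each higher than in the other endothelial cells of the same library in 6 of 6 libraries. Kdr, the main receptor for VEGF-A, was lower in 6 of 6 (335 to 638 CPM). Of the arterial genes of the rule, Gja5 was at 0 to 1.53 CPM, Hey1 at 7.09 to 13.5 and Sox17 at 21.6 to 87.3.

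The venous cells were not uniform in the pair of genes that chose them. UMIs of both genes were present in 1106 cells (66.2%), of Selp alone in 536 (32.1%) and of Ackr1 alone in 29 (1.74%). Cells with both genes held more Vwf in every library. The level was 722, 644 and 322 CPM in controls 1 to 3 and 386, 491 and 403 in labelled knockout 1 to 3, against 186, 98.1 and 73.5 and 81.4, 85.1 and 61.2 CPM in the cells with Selp alone. Lrg1, a secreted glycoprotein of venules, had a median over libraries of 1140 CPM in cells with both genes and 637 with Selp alone, and Il6st, the gp130 subunit shared by receptors of the interleukin 6 family, 827 and 388. Nr2f2 differed less (399 and 305 CPM) and was lower in the cells with both genes in labelled knockout 1. Median depth ran from 6240.5 to 11870 UMIs in cells with both genes and from 5607 to 27608 in those with Selp alone, and the cells with both genes were the deeper ones in control 3 and labelled knockout 2 only.

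**Figure D1:**
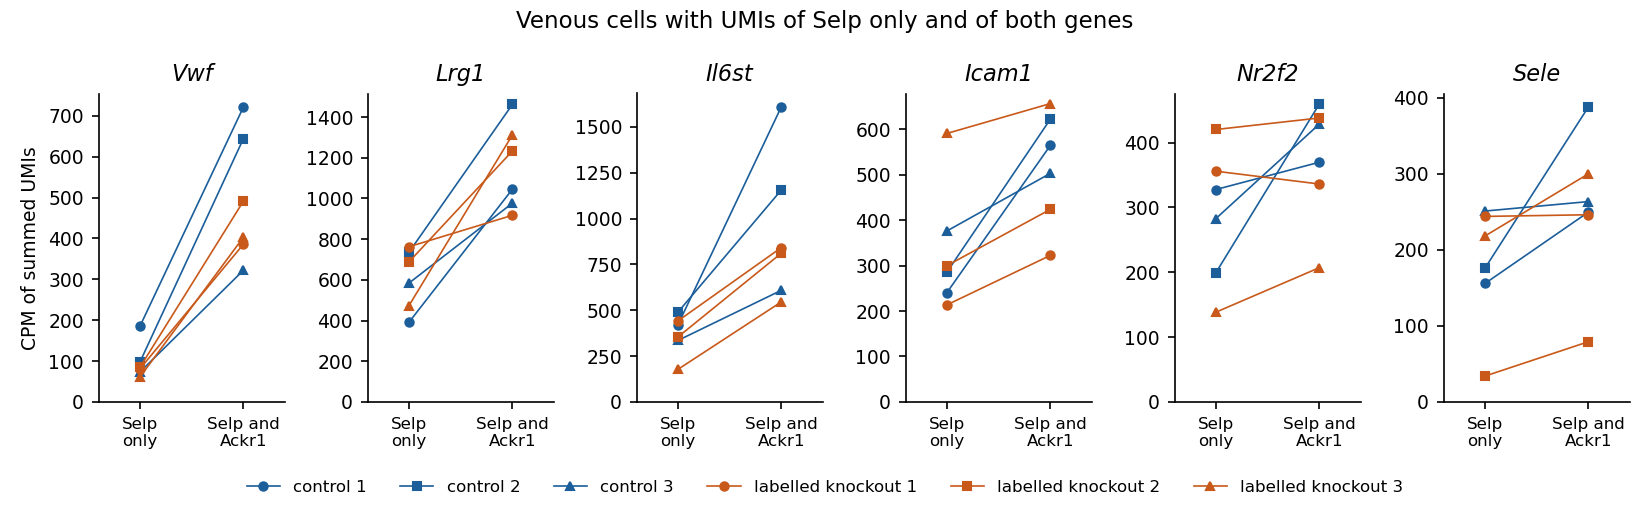
CPM of summed UMIs (y axis, linear from 0) of 6 genes in venous cells with UMIs of Selp only and of both Selp and Ackr1 (x axis), with a line for each of the 6 libraries. Vwf, Lrg1, Il6st and Icam1 were higher with both genes in all 6 libraries, and so was Sele, by as little as 244 to 246 CPM in labelled knockout 1, where Nr2f2 was lower with both genes.

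At the edge of the rule, 209 cells had exactly 2 UMIs of Selp and Ackr1 and 290 endothelial cells outside it had exactly 1. The median level over libraries was 145 CPM of Vwf just inside and 48.5 just outside, 505 and 405 CPM of Lrg1, and 307 and 242 of Nr2f2. The libraries were not uniform in this. Vwf was lower inside in control 3 (7.58 against 36.1 CPM), Lrg1 in labelled knockouts 1 and 2, and Nr2f2 in controls 2 and 3 and labelled knockout 1, where only 2 cells lay inside and 3 outside. A further 99 cells had at least 2 UMIs of the pair but as many or more of the arterial genes, with a median of 20.6 CPM of Vwf. In the 798 cells with at least 10 UMIs of the pair, the median of Vwf was 496 CPM.

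Venous cells made up 34%, 40.8% and 26.7% of endothelial cells in controls 1 to 3 (95% Wilson intervals 29.3% to 39.1%, 38.6% to 43% and 24.1% to 29.5%, counting error only). They made up 41.3%, 16% and 21.8% in labelled knockout 1 to 3 (32.5% to 50.7%, 14.2% to 18% and 19.3% to 24.4%). Labelled knockouts 2 and 3 lay below all controls and labelled knockout 1, with the fewest cells, above them. The means were 33.8% ± 7.02 and 26.4% ± 13.2 (SD, n = 3 each), and their difference of -7.47 points did not exceed the SD of the labelled knockouts (exact permutation test, two-sided, p = 0.5). Thinning each cell to 1000 UMIs left out 1 cell of control 1. It gave means of 24.1% ± 6.27 and 17.8% ± 11.7, with p = 0.5 by the same exact test. The thinned difference of -6.37 points was -3.69 without labelled knockout 3. At full depth the difference was -14.9 points without labelled knockout 1, -2.31 without labelled knockout 2, -5.17 without labelled knockout 3 and -4.00 without control 2.

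Of all cells kept, venous cells were 4.72%, 9.33% and 3.25% in the controls and 2.1%, 2.44% and 3.1% in the labelled knockouts. The groups did not overlap, with means of 5.77% ± 3.17 and 2.55% ± 0.505 (SD, n = 3 each). The exact permutation p was 0.1, the smallest that 3 libraries against 3 allow, so this design cannot pass 0.05. The share of all cells also depends on how many cells of other types were captured, and its difference of -3.22 points was -1.44 without control 2 and -3.50 without labelled knockout 3.

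**Figure D2:**
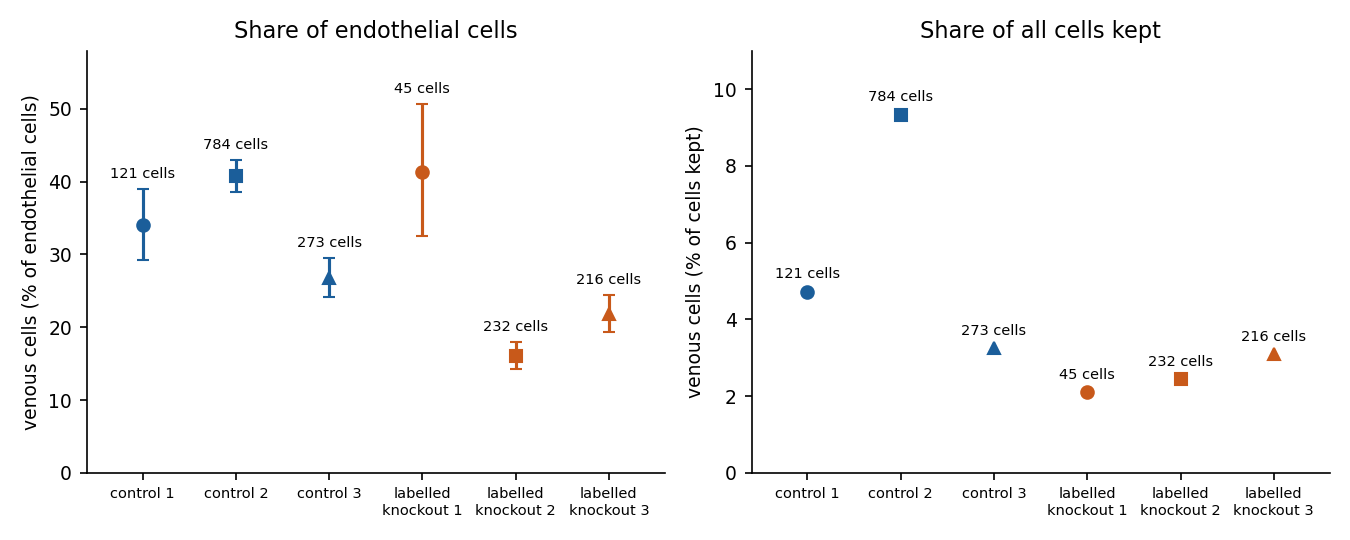
Venous cells as a percentage of endothelial cells (left, with 95% Wilson intervals) and of all cells kept (right), by library, with the number of venous cells beside each point. On the left the labelled knockouts span 16% to 41.3% and overlap the controls, and on the right they lie between 2.1% and 3.1%, below the controls.

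Venous cells were then compared with the other endothelial cells of the same libraries. UMIs were summed for each population and library and tested in edgeR with the library as a block. The cells had been split by Selp and Ackr1, so this test shows which further genes went with that pair within libraries. Of 12395 genes tested, 909 were higher in venous cells (7.33%) and 902 lower (7.28%) at an adjusted p of 0.05. The median log2 fold change of all genes tested was -0.0048. Without labelled knockout 3, 1332 genes were called, and without control 2, which held the most venous cells, 967 (1811 with all libraries). Counts for gene lists below are read against these shares, and their members and medians describe the lists without a test of the list.

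Sele, the endothelial selectin that catches rolling leukocytes, stood at 217, 327 and 256 CPM in controls 1 to 3 and at 245, 62.5 and 257 in labelled knockout 1 to 3, against 6.65 to 22 CPM in the other endothelial cells. The populations did not overlap, and the log2 difference was 3.88 (SE 0.18, adjusted p = 6.9e-07, higher in 6 of 6 libraries). Labelled knockout 2 was lowest for Sele in venous cells. Icam1, a ligand of leukocyte integrins, followed with 455, 525 and 455 CPM in the controls and 299, 378 and 616 in the labelled knockouts, against 73.6 to 198 elsewhere (log2 difference 1.98, SE 0.13, adjusted p = 7.7e-06, 6 of 6). Vcam1, the ligand of the integrin VLA-4, ranged from 80.9 to 162 CPM against 24.7 to 49.9 (log2 difference 1.73, SE 0.14, adjusted p = 2.1e-05, 6 of 6).

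Of the list for leukocyte adhesion and transmigration, 15 of 18 members were tested, 7 were higher in venous cells and 3 lower, with a median log2 difference of 0.09. Besides the 3 genes above, the higher members were Jam2 (1.06), Pvr (0.33), Nectin2 (0.27) and the sialyltransferase St3gal6 (0.67). The lower members were the junctional molecule Jam3 (-1.16), Icam2 (-0.49) and the sialomucin Podxl (-0.82). The rest of the list did not move as a block, since Cd34 (-0.09), Esam (0.09), F11r (0.06) and Cd99l2 (-0.01) did not pass the test.

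Vwf (chr6:125546774-125686679), which binds platelets and carries factor VIII, had 546, 488 and 221 CPM in venous cells of the controls and 325, 364 and 251 in those of the labelled knockouts. The other endothelial cells had 24.8 to 67.9 CPM, and the log2 difference was 3.08 (SE 0.14, adjusted p = 6.9e-07, 6 of 6). Of the 16 genes of Weibel-Palade bodies and haemostasis, all tested, 7 were higher and 3 lower. F8, which encodes factor VIII itself, was higher (log2 difference 1.21, SE 0.11, adjusted p = 3.1e-05), as was Rab27a (2.02), a small GTPase that acts in release of these granules. Some inhibitors and receptors that limit clotting were also higher, namely Procr (0.78), Tfpi (0.79) and the ectonucleotidase Entpd1 (0.94). Thbd, a further receptor of this kind in the list, did not pass the test. Plat, the tissue plasminogen activator, was lower (-0.58), and so was Mmrn1 (-2.58), which lymphatic endothelium also makes. Angpt2 (-0.03), Edn1 (0.41) and Cd63 (-0.24), further cargo of the granules, did not pass the test.

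Several cytokine receptors were among the named genes. The interleukin 1 receptor Il1r1 had 117, 295 and 149 CPM in the controls and 117, 77.9 and 89.8 in the labelled knockouts, against 17.8 to 36.3 in the other endothelial cells (log2 difference 2.37, SE 0.14, adjusted p = 3.0e-06, 6 of 6). Il6st had 1210, 967 and 497 CPM in the controls and 759, 659 and 382 in the labelled knockouts, against 81.4 to 202 (log2 difference 2.25, SE 0.11, adjusted p = 9.5e-07, 6 of 6). Venous cells of every library lay above all libraries of the other cells for these genes. Csf2rb2, a receptor chain for interleukin 3, had a log2 difference of 2.22, and Tnfrsf11a, the receptor RANK, of 1.70.

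Of 15 genes of the NF-kB and cytokine response list, all tested, 11 were higher and 1 lower, with a median log2 difference of 0.61. Nfkbiz (0.96), Cebpd (0.95), Socs3 (0.70), Irf1 (0.61), Tnfrsf1a (0.61), Nfkbia (0.53), Nfkb1 (0.38) and Relb (0.33) were among the higher members and share Il1r1 and Icam1 with the lists above. Tnfaip2 (-0.37) was lower. The immediate early and dissociation list, whose genes also respond to tissue digestion, had 4 of 15 members higher and none lower, with a median of 0.17. Those 4 were the stress genes Ier3 (0.86), Hspa1b (0.47), Zfp36 (0.46) and Atf3 (0.33), and their part in the NF-kB list was not tested.

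Secreted cytokines went in both directions. Csf3, the granulocyte colony-stimulating factor, had 4.96, 41.8 and 22.2 CPM in the controls and 97.1, 3.73 and 12.6 in the labelled knockouts, against 0.207 to 4.66 elsewhere (log2 difference 3.89, SE 0.34, adjusted p = 2.9e-05, 6 of 6). Levels of Csf3 in venous cells thus differed widely between libraries of both groups. Il6 (log2 difference 1.28, 5 of 6 libraries), Csf1 (0.77), Cxcl16 (0.69) and Cxcl1 (0.56) were also higher. Cxcl12, which retains CXCR4-bearing cells, was lower, with 152, 157 and 119 CPM in the controls and 159, 88.2 and 121 in the labelled knockouts against 339 to 641 (log2 difference -1.70, SE 0.09, adjusted p = 2.1e-06, lower in 6 of 6). In all, 5 of 14 tested chemokines and cytokines were higher and 3 lower, the other lower members being Cxcl2 (-0.55) and Ccl21a (-5.84).

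Ccl21a is a chemokine of lymphatic endothelium, and the endothelial rule did not remove lymphatic cells. It had 1.02 to 23.6 CPM in venous cells and 17 to 605 in the others (SE 0.35, adjusted p = 3.7e-06). Of 8 lymphatic markers, all tested, 6 were lower in venous cells and none higher. They included Prox1 (-2.41), the transcription factor of lymphatic identity, Reln (-3.46) and Lyve1 (-2.60). The list summed to 90.1, 40.5 and 228 CPM in venous cells of the controls and 64.7, 165 and 53.3 in those of the labelled knockouts, and to 186 to 1096 CPM in the others. Prox1 UMIs were found in 0.862% to 6.61% of venous cells.

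The list of venous identity, which shares members with other lists, had 11 of 15 members higher and 2 lower, with a median log2 difference of 0.82. Nr2f2 had 358, 386 and 370 CPM in the controls and 341, 432 and 178 in the labelled knockouts, against 65.3 to 190 in the other endothelial cells (log2 difference 1.54, SE 0.12, adjusted p = 1.6e-05, 6 of 6). Labelled knockout 3 was the lowest and lay within the range of the others' libraries. Lrg1 (log2 difference 2.17, SE 0.16, adjusted p = 1.3e-05, 6 of 6), the LIM protein Csrp2 (1.10), the apelin receptor Aplnr (0.54), the ephrin receptor Ephb4 (0.40) and Nrp2 (0.39) were also higher. Plat was among the lower members. Bgn (0.33) and Ctsh (0.28) did not pass the test. Of the venous markers that the rule did not use, Nr2f2 and Vwf were thus higher by a wide margin and Ephb4 by a small one. Ephb4 UMIs were found in fewer venous than other cells in control 1 (52.1% against 66.4%) and labelled knockout 1 (71.1% against 71.9%), and after thinning in control 1 (11.6% against 14.1%).

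Genes outside the lists were among the most different. Chp2 (log2 difference 3.71), a calcineurin-like protein that activates sodium-proton exchange, had 26.5 to 135 CPM against 1.26 to 8.5. Mctp1 (3.02), Spint2 (2.81), an inhibitor of serine proteases, Cmah (2.81), the hydroxylase that makes N-glycolylneuraminic acid, and Ctnnal1 (2.66) followed, each higher in 6 of 6 libraries. The adherens junction protein Plekha7 (2.45), the flavin monooxygenase Fmo2 (2.42), the complement inhibitor Cd55 (2.06) and the lipopolysaccharide co-receptor Cd14 (2.03) completed the 15 highest. Fmo2 ranged most between libraries, from 2.89 CPM in control 3 to 127 in control 1.

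**Figure D3:**
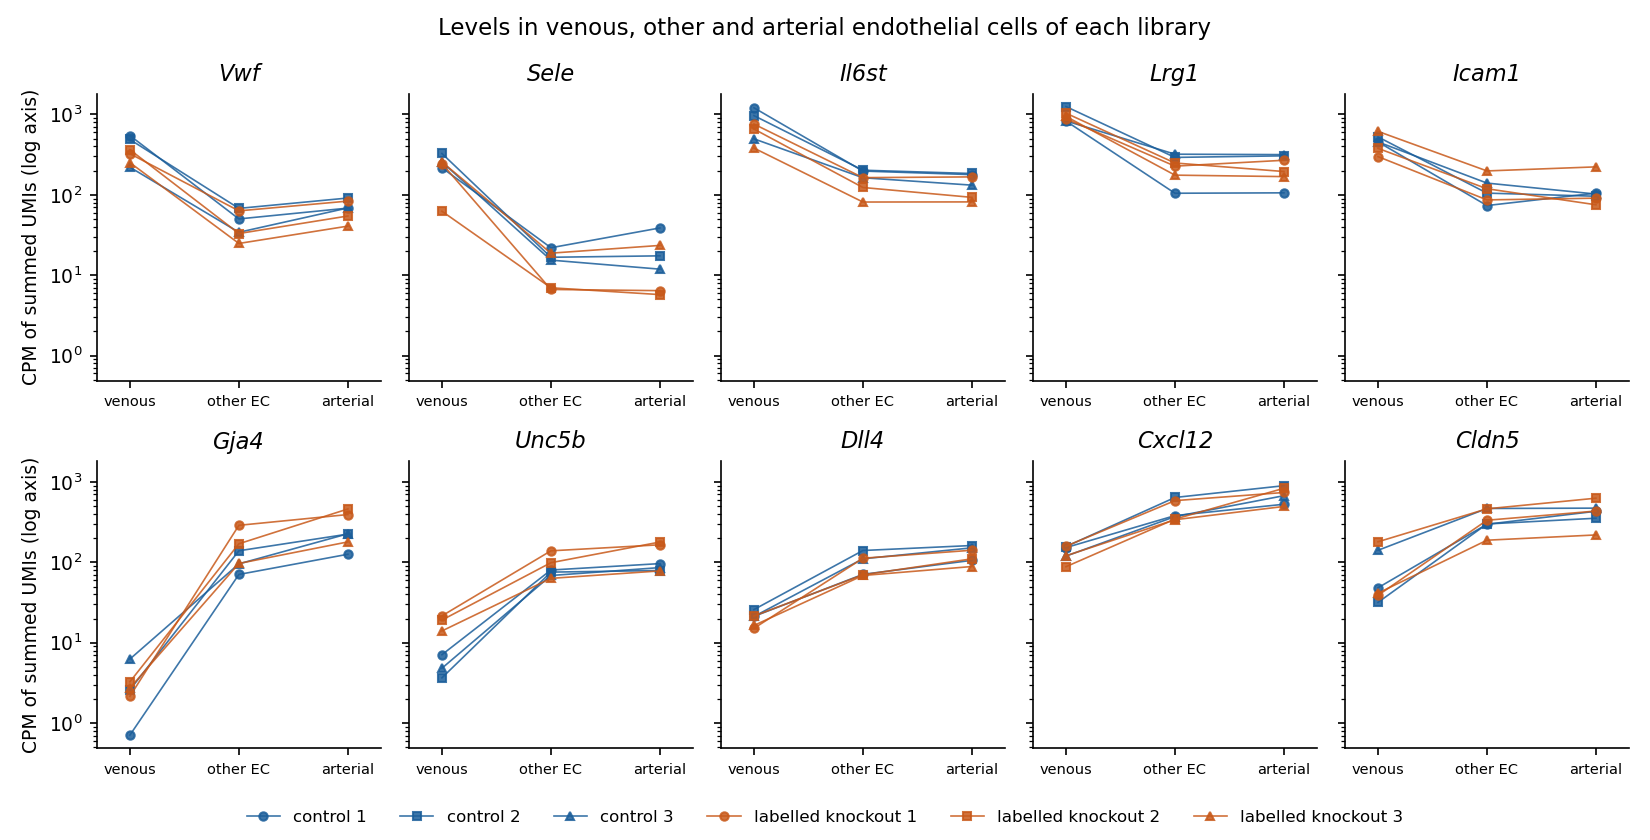
CPM of summed UMIs (y axis, log scale) of 10 genes in venous, other and arterial endothelial cells (x axis), with a line for each library. Vwf, Sele, Il6st, Lrg1 and Icam1 (top) were highest in venous cells of all 6 libraries, and Gja4, Unc5b, Dll4, Cxcl12 and Cldn5 (bottom) were lowest there in all 6, with Gja4 between 0.709 and 6.26 CPM.

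Genes of arteries and of angiogenic tip cells were lower in venous cells. The rule asked for fewer UMIs of Gja5, Sox17 and Hey1 than of Selp and Ackr1 and so left arterial cells among the others. Gja4 (connexin 37), a gene the rule did not use, had 0.709, 2.6 and 6.26 CPM in the controls and 2.16, 3.27 and 2.73 in the labelled knockouts, against 70.7 to 289 (log2 difference -5.41, SE 0.21, adjusted p = 4.9e-07, lower in 6 of 6). Of 15 arterial genes, 14 were tested, 8 were lower and none higher. Sema3g (-4.23), Unc5b (-3.06), Bmx (-2.84), the Notch ligands Dll4 (-2.17) and Jag1 (-0.70), and Efnb2 (-1.95), the ligand of Ephb4, were among them. Outside the lists, Igfbp3 had 155, 105 and 194 CPM in the controls and 59.3, 48.5 and 59.4 in the labelled knockouts against 301 to 1541 (-3.09), and St8sia6 (-4.25), Sema7a (-2.60), the tight junction protein Cldn5 (-2.28), Btnl9 (-2.24), the Wnt modulator Dkk2 (-2.13) and Col8a1 (-1.96) were lower in 6 of 6 libraries, with the call for Col8a1 lost without arterial cells. Mgp (-0.65), Tm4sf1 (0.05) and Fbln5 (0.34) did not pass the test.

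All 12 tip cell genes were tested, 10 were lower and none higher, with a median log2 difference of -1.07. Esm1 had 9.93, 4.13 and 0.963 CPM in the controls and 0, 2.8 and 28.7 in the labelled knockouts, against 34.6 to 197 (log2 difference -3.85, SE 0.35, adjusted p = 3.8e-05). Kcne3 (-2.71), the growth factor Pgf (-2.32), the chemokine receptor Cxcr4 (-1.83) and Ramp3 (-1.79) were the next. Apln (-0.14) and Angpt2 (-0.03) did not pass the test. With arterial cells left out of the comparison, 1543 genes were called in place of 1811, and the calls for Mcam (-0.54) and Col4a1 (-0.39) of this list ended.

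The basement membrane and matrix list had 9 of 16 members lower and none higher. The largest were Nid2 (-1.46), the laminin chain Lama4 (-0.97), Sparcl1 (-0.96) and Fn1 (-0.93), and Lamb1 (-0.83) and Lamc1 (-0.69) were lower too. RNA of stromal cells moved with this comparison, since 5 of 9 fibroblast markers were lower in venous cells and none higher, led by Dcn (-0.87), and their part in the matrix list was not tested. Col1a1 was the most abundant fibroblast marker, and the 9 summed to 9328, 1930 and 8786 CPM in venous cells of the controls and 12304, 16761 and 9033 in those of the labelled knockouts, against 4470 to 21458 in the others. The call for Fn1 ended when at least 10 endothelial UMIs were required and without control 2, control 3 or labelled knockout 2. Against arterial cells, 12 of 16 matrix genes were lower and 1 higher.

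Genes of capillaries and sinusoids divided. Of 14 tested, 6 were higher and 5 lower, with a median of 0.01. The water channel Aqp1 had 2305, 2034 and 657 CPM in the controls and 1902, 870 and 875 in the labelled knockouts, against 264 to 726 (log2 difference 1.47, SE 0.15, adjusted p = 8.1e-05, 6 of 6). The fatty acid binding protein Fabp4 (1.06) and the fatty acid transporter Cd36 (0.83) were higher as well. Gpihbp1 (-1.47), which anchors lipoprotein lipase in capillaries, Kit (-1.21) and Rgcc (-0.97) were lower. Stab2, a scavenger receptor of sinusoids, was called higher (1.42), but ran from 0 to 45.8 CPM over libraries, was higher in 4 of 6 and lost its call without arterial cells.

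**Figure D4:**
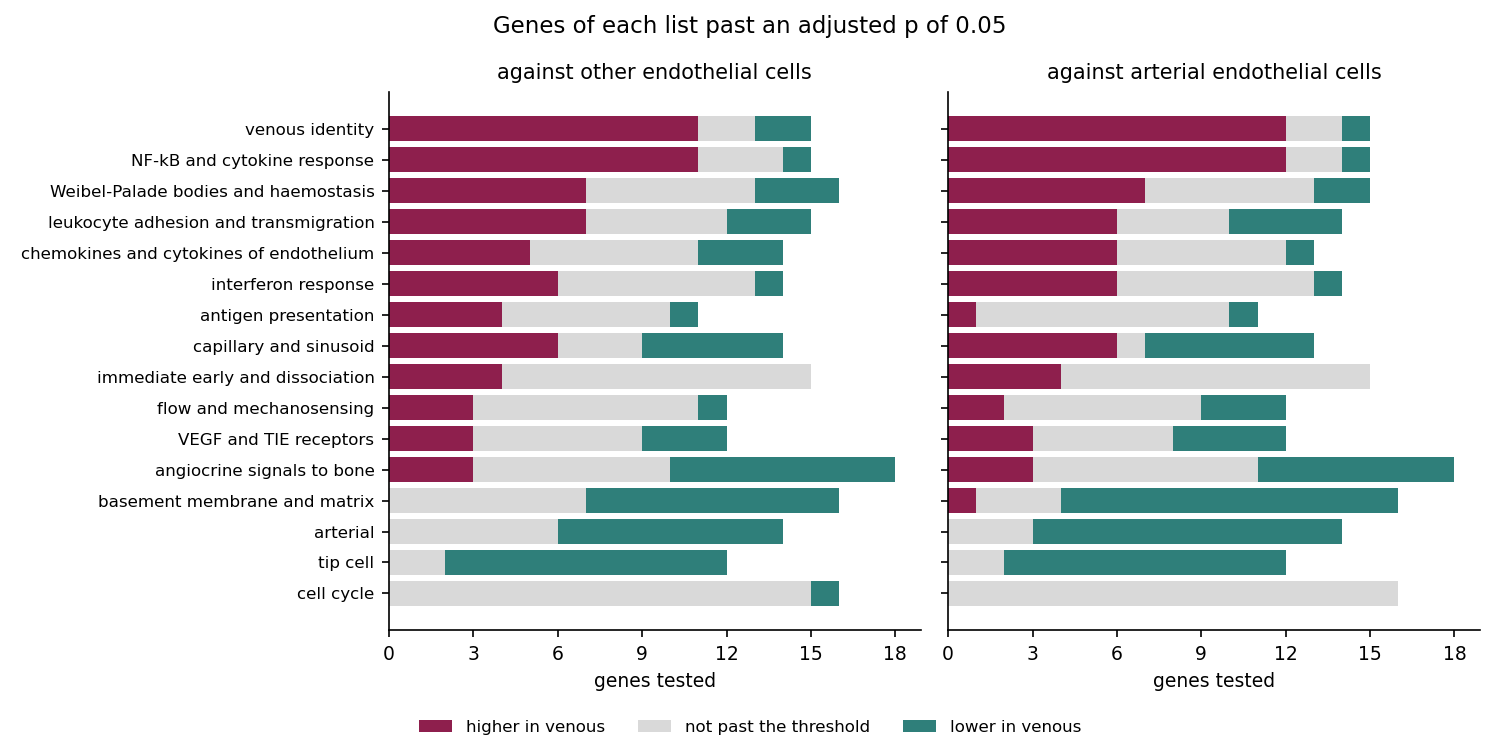
Number of tested genes (x axis) of 16 lists (y axis) that were higher in venous cells, lower, or not past an adjusted p of 0.05, against other (left) and arterial (right) endothelial cells. The venous identity and NF-kB lists have 11 higher members each on the left, and the arterial and tip cell lists have 8 and 10 lower members and none higher.

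Interferon-inducible genes included 6 higher members and 1 lower of 14. Iigp1, a GTPase induced by interferon gamma, led (396, 331 and 240 CPM in the controls and 322, 211 and 107 in the labelled knockouts, against 21.5 to 121; log2 difference 1.85, SE 0.12, adjusted p = 4.7e-06, 6 of 6). Igtp (0.82), Gbp4 (0.77) and Ifitm3 (0.75) followed. Ifit2 (-0.96) was lower, and Isg15 (0.03), Irf7 (0.07) and Bst2 (0.12) did not pass the test. Of 11 tested genes of antigen presentation, the class I genes H2-K1 (0.61), Psmb9 (0.43), Tap1 (0.37) and B2m (0.33) were higher and Cd40 (-0.71) lower.

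Among signals from endothelium to bone, 3 of 18 tested genes were higher and 8 lower, with a median of -0.60. Bmp4, a bone morphogenetic protein, had 85.8, 55.1 and 38.5 CPM in the controls and 52.9, 73.7 and 46.5 in the labelled knockouts, against 16.1 to 23.3 (log2 difference 1.53, SE 0.15, adjusted p = 6.5e-05, 6 of 6). Igf1 (0.84) and Csf1 (0.77) were the other higher members. The lower ones, besides Esm1, Dll4, Jag1 and Cxcl12, were Jag2 (-1.12), Slit3 (-1.06), Pdgfb (-0.87), the factor that recruits pericytes, and Tgfb1 (-0.24). Kitl (-0.08) and Postn (-0.61) did not pass the test. Of 12 VEGF and TIE genes, the angiopoietin receptor Tek (0.74), the phosphatase Ptprb (0.53) and Nrp2 were higher, Pgf, Flt4 (-0.99) and Nrp1 (-0.52) lower, and Flt1 (0.03) did not pass the test.

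Of 12 genes of flow and mechanosensing, 3 were higher and 1 lower. Adgrg6, an adhesion receptor, led (log2 difference 2.31, SE 0.39, adjusted p = 0.0022, 6 of 6). Piezo1, the mechanically gated channel that is the study's target in chondrocytes, had 115, 134 and 126 CPM in venous cells of the controls and 175, 100 and 84.4 in those of the labelled knockouts, against 60.1 to 138 in the other endothelial cells (log2 difference 0.47, SE 0.06, adjusted p = 3.8e-04, 6 of 6). Piezo1 UMIs were found in fewer venous than other cells in control 1 alone (62.8% against 65.1%, and 6.61% against 9.83% after thinning). Its relative Piezo2 was lower in venous cells (-1.08). The flow-responsive factor Klf4 was called higher (0.23), but lost the call without any of 5 libraries (controls 1, 2 and 3, labelled knockouts 2 and 3). Klf2 (-0.11) and Nos3 (0.01) did not pass the test.

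Of 16 cell cycle genes tested, Ccnb1 was lower in venous cells (-0.53, adjusted p = 0.0498) and none higher, and that call ended in most alternatives. Fitted values were below 0 for 15 of the 16 (median -0.22), and against arterial cells for 14 of 16 (-0.14). Markers of other cell types were checked for the same cells. Of 10 smooth muscle and pericyte markers, 7 were tested, Tagln was higher (log2 difference 1.93, SE 0.21, adjusted p = 1.4e-04, 6 of 6) and Kcnj8 (-1.46), Abcc9 (-0.82) and Cspg4 (-0.76) were lower, and the list summed to 225 to 554 CPM in venous cells. Platelets and their precursors also carry Selp and Vwf. Their markers Ppbp, Gp9, Gp6 and Treml1 were at 0 in venous cells of all 6 libraries, Pf4 had 8.38 to 57.8 CPM with no difference past the test (0.03), and Itga2b was higher (1.19). The 8 markers summed to 41.7 to 72.3 CPM in venous cells and 17 to 50.2 in the others.

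None of the 10 macrophage markers and none of 8 tested neutrophil markers passed the test. The macrophage list summed to 230 to 977 CPM in venous cells, with Lyz2 the most abundant, and the neutrophil list to 4792 CPM at most, with S100a8 the most abundant. Of the chondrocyte and osteoblast lists, 1 of 11 and 2 of 9 tested genes were lower (Col9a3, -1.02, Ifitm5, -0.92, and Col22a1, -1.20). Haemoglobin genes were highest in control 3, with 2632 CPM in venous cells against 1.41 to 189.9 in the other libraries.

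Against arterial endothelial cells (1570 cells with at least 2 UMIs of Gja5, Sox17 and Hey1 and more than of Selp and Ackr1), 816 of 11160 genes were higher in venous cells (7.31%) and 819 lower (7.34%). Without control 2 the calls numbered 1071 in place of 1635, and without labelled knockout 3 they numbered 1308. This comparison shares the venous cells with the one above, and arterial cells are part of the others there. The genes higher in both numbered 668, which is 73.5% of the first list and 81.9% of the second, and 572 were lower in both (63.4% and 69.8%). The adhesion genes had similar values here, with log2 differences of 3.73 for Sele, 2.08 for Icam1 and 1.59 for Vcam1. Vwf had a log2 difference of 2.46 (SE 0.16, adjusted p = 3.3e-06), below the 3.08 of the wider comparison. Lbp, which binds lipopolysaccharide, was among the 15 highest genes only here (2.60, SE 0.21, adjusted p = 1.1e-05). Gja4 (-6.33), Sema3g (-5.08), St8sia6 (-4.89), Slc45a4 (-2.89) and Cxcl12 (-2.35) were among the lowest. Of the arterial list, 11 of 14 were lower and of the venous list 12 of 15 higher.

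By genotype label, no gene passed the edgeR test in venous cells with the filter on low counts. With UMIs summed per library, 3 libraries against 3, 0 of 11119 genes had an adjusted p under 0.05 in edgeR (0%), 730 had an unadjusted p under 0.05, and the smallest adjusted p was 0.746. DESeq2 called 8 genes, and edgeR with no filter on low counts called 214, of which 176 were among the genes of the filtered fit. With the filter, the count was also 0 without labelled knockout 3 and without any other library. On simulated sums this filtered fit called 0% of genes changed by a log2 difference of 1 and 85.79% of those changed by 2. A count of 0 therefore does not speak to changes as small as a log2 difference of 1. Libraries of the groups did not overlap for 542 genes that were higher in the labelled knockouts (4.87%) and 830 that were lower (7.46%). The median log2 difference of all genes was 0.011.

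Piezo1 itself, which the Cre is not meant to remove here, had means of 125 ± 9.63 CPM in the controls and 120 ± 48.3 in the labelled knockouts (SD, n = 3 each). The difference of -5.21 CPM was smaller than the spread among the labelled knockouts (exact permutation test, two-sided, p = 0.9) and its sign turned without labelled knockout 2 or 3. A 3′ count of transcripts would not show the loss of an exon. The log2 difference in edgeR was -0.04 (SE 0.27).

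Genes closest to the threshold are given as values, since they were named by unadjusted p among genes whose groups do not overlap. Kcne3, a potassium channel subunit of tip cells, had 7.8, 5.07 and 2.89 CPM in the controls and 18.3, 31.7 and 21.9 in the labelled knockouts (log2 difference 2.29, SE 0.39, adjusted p = 0.746). Unc5b, a netrin receptor of arteries and tip cells, had 7.09, 3.66 and 4.82 and 21.6, 19.1 and 14 CPM (1.92, SE 0.36). Both are genes that venous cells hold at lower levels than other endothelial cells, in both groups. In the other endothelial cells the log2 differences by label were 1.12 (SE 0.29) for Kcne3 and 0.44 (SE 0.25) for Unc5b, and the test of the difference between populations gave adjusted p = 0.95 and 0.11.

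The other genes with higher values in the labelled knockouts were Nes, an intermediate filament protein (35 ± 6.11 against 76.2 ± 10.9 CPM, SD, n = 3 each), Shisa4 (10.4 ± 1.17 against 30.1 ± 7.2) and Ramp1 (4.38 ± 4.22 against 38.1 ± 22.6), a subunit of the receptor for calcitonin gene-related peptide. Those with lower values included Thbd, thrombomodulin, which turns thrombin toward activation of protein C. It had 262, 253 and 251 CPM in the controls and 123, 133 and 139 in the labelled knockouts (log2 difference -0.90, SE 0.20). Igfbp3, which binds insulin-like growth factors, had the values given above (151 ± 44.8 against 55.8 ± 6.28 CPM, log2 difference -1.38, SE 0.27). Slc5a3, a myo-inositol transporter (83.3 ± 8.62 against 39 ± 6.01), Cdc14a (60.3 ± 7.73 against 30.4 ± 2.46) and Fam84b (39.1 ± 9.14 against 15.9 ± 4.04) completed the 10. Their adjusted p was 0.746 in each case. With no filter on low counts, 8 of the 10 passed the test (all except Cdc14a and Thbd), and DESeq2 called 3 of them (Kcne3, Ramp1 and Igfbp3).

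**Figure D5:**
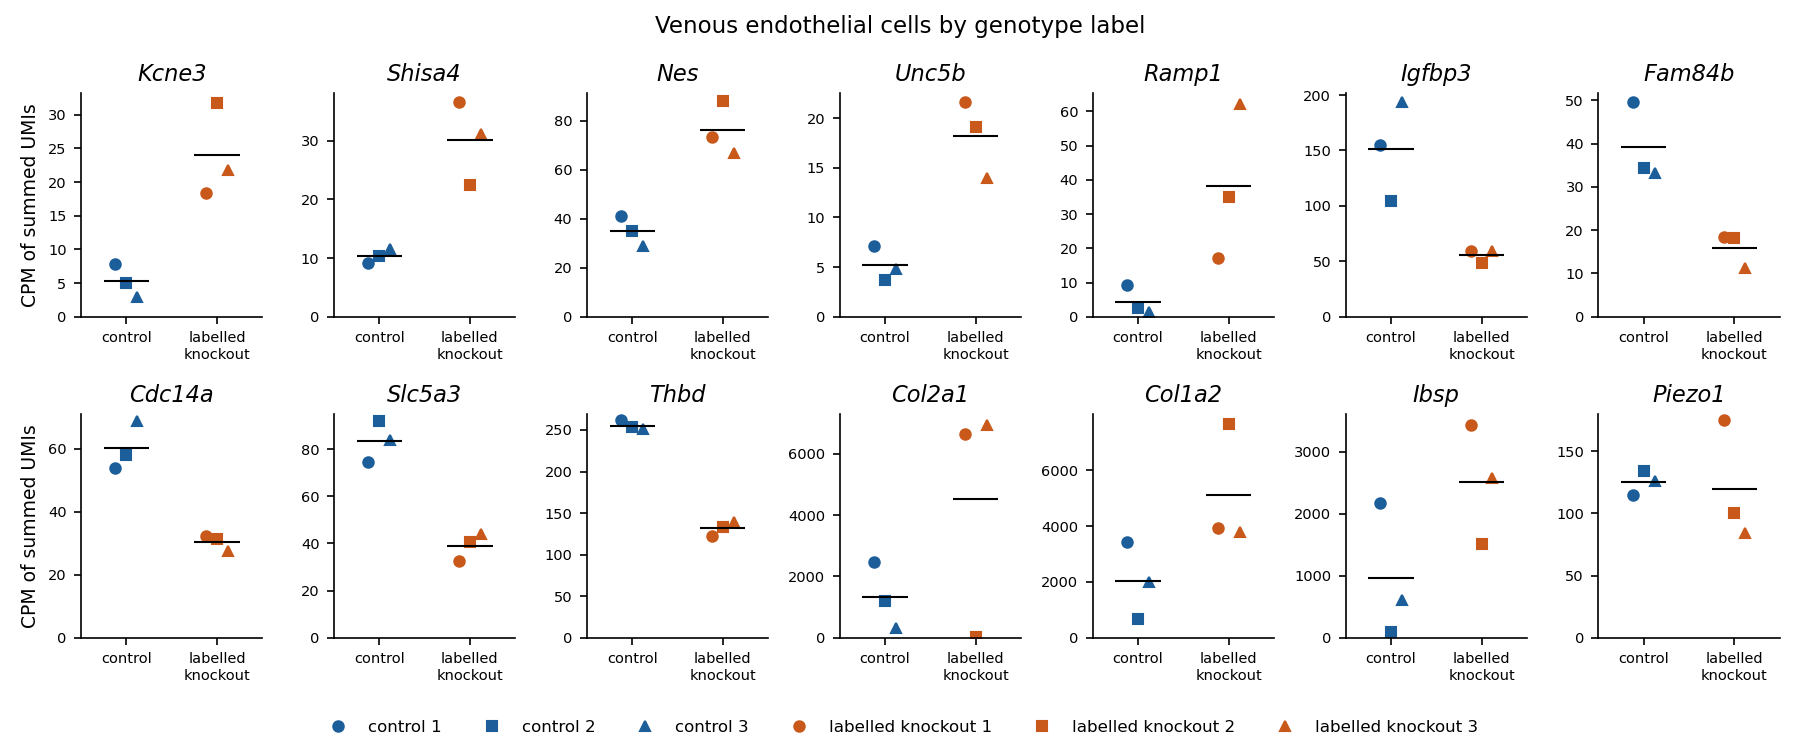
CPM of summed UMIs (y axis, linear from 0) in venous cells of each library by genotype label (x axis), with a bar at the mean of 3 libraries. The first 10 genes were chosen because their groups do not overlap and none passed the adjusted edgeR test with the filter on low counts, Col2a1, Col1a2 and Ibsp are RNA of other cell types, and the Piezo1 groups overlap.

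Markers of other cell types were read in the same cells. All 11 tested chondrocyte markers and all 8 tested osteoblast markers had higher fitted values in the labelled knockouts, with median log2 differences of 1.70 and 2.57, as did 8 of 9 macrophage (0.97), 7 of 7 neutrophil (0.87) and 8 of 9 fibroblast markers (0.71), and none passed the test. The chondrocyte sums given above overlapped between the groups, with labelled knockout 2 below every control. In the other endothelial cells, 3 of 12 chondrocyte markers (median -0.25) and 8 of 9 osteoblast markers (0.94) were above 0. The osteoblast list summed to 2509, 128 and 696 CPM in the controls and 3774, 3532 and 2989 in the labelled knockouts. Spp1 and Mmp9, genes of bone-forming and bone-resorbing cells, were among the 8 genes that DESeq2 called, with 386, 201 and 681 against 1501, 1385 and 1761 CPM for Spp1. Ramp1, Kcne3 and Hpgd (higher) and Igfbp3 and Gm37376 (lower) were also among them. The part of other cell types' RNA in these values was not tested.

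In edgeR with the filter on low counts, no member of the lists was called by genotype label. Members called in other fits included Kcne3 of the tip cell list (DESeq2 and no filter) and Unc5b of the arterial list (no filter). Fitted values were lower in the labelled knockouts for 12 of 15 haemostasis genes (median log2 difference -0.37), 13 of 15 NF-kB genes (-0.14) and 14 of 15 immediate early genes (-0.47), and higher for 14 of 16 cell cycle genes (0.64). Lower values were not particular to these lists. They were found for 12 of 14 interferon (-0.30), 9 of 12 flow (-0.39), 10 of 14 capillary (-0.33) and 9 of 14 adhesion genes (-0.32). Apart from cell cycle genes and the markers of lymphatic vessels and other cell types, every list held more lower than higher values. The median over all genes tested was 0.011. In the other endothelial cells, values were likewise lower for 12 of 16 haemostasis genes (-0.32) and 13 of 15 immediate early genes (-0.28), and for 7 of 15 NF-kB genes (0.04). Top2a, which marks dividing cells, had 94.3, 74 and 91 CPM in the controls and 158, 78.4 and 139 in the labelled knockouts, and the groups overlapped. Cells with at least 2 UMIs of Mki67, Top2a, Cdk1 and Ccnb1 together made up 11.6%, 11.4% and 12.5% of venous cells in the controls and 26.7%, 13.8% and 29.2% in the labelled knockouts. These groups did not overlap (means 11.8% ± 0.584 and 23.2% ± 8.25, SD, n = 3 each, exact permutation p = 0.1, the smallest possible), and the difference was 11.4 points, or 8.44 without labelled knockout 3. The groups overlapped at 1 UMI or more (difference 8.69 points, exact permutation p = 0.2, 3.79 points without labelled knockout 3). With each cell thinned to 1000 UMIs, cells with at least 2 UMIs were 0.826%, 2.3% and 2.93% in the controls and 2.22%, 2.16% and 7.87% in the labelled knockouts, and those with at least 1 UMI were 7.44%, 6.63% and 9.89% and 6.67%, 6.9% and 16.7%. Both thinned measures overlapped between the groups (exact permutation p = 0.6 and p = 0.8), with labelled knockout 3 highest, and without it their differences of 2.06 and 2.09 points became 0.171 and -1.21. In the other endothelial cells, those with at least 2 UMIs at full depth were 22.6%, 10.4% and 14.6% in the controls. In the labelled knockouts they were 21.9%, 16.3% and 29.7%, and the groups overlapped (difference 6.78 points, exact permutation p = 0.3, 3.23 points without labelled knockout 3). Their thinned shares with at least 1 UMI were 10.3%, 7.55% and 11.4% in the controls and 12.5%, 11.4% and 16.5% in the labelled knockouts, a difference of 3.75 points (exact permutation p = 0.1, the smallest possible) that was 2.25 without labelled knockout 3. In those cells the cell cycle median was 0.26, with 14 of 16 above 0. No gene passed the edgeR test with the filter there either (0 of 14178, 0%, with 480 at an unadjusted p under 0.05). The test of a different genotype effect in venous cells called 0 of 13402 genes (0%, with 476 at an unadjusted p under 0.05). Both counts were also 0 without labelled knockout 3. With no filter on low counts they were 5 and 137, and DESeq2 called 2 genes in the other endothelial cells.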

How the data were processed

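Calluses were dissociated by enzymes and captured with the 10x 3′ v3 kit, a callus from each mouse per the labels. The authors deposited raw UMI counts per gene and barcode, made with Cell Ranger (6.1.1 for replicate 1 of both groups, 6.1.2 for the others, per the file headers). GRCm38 and Seurat are named in the submitters' processing notes. Replicate 3 of both groups was counted on another gene set, so the 52081 gene identifiers shared by all libraries were used. The cells were chosen with earlier results of these data known, and so were the gene lists. No cell was removed as a doublet, and an alternative left out the 5% of cells with most UMIs. Counts were summed per library and population and tested with edgeR 4.0.16 (quasi-likelihood test, filterByExpr, TMM, R 4.3.3), with the library as a block between populations and 3 libraries against 3 by genotype label. Adjusted p-values are Benjamini-Hochberg values over all genes tested except the 12 genes that chose the cells, called at 0.05, and standard errors are the fitted log2 fold change over the root of the test's F. DESeq2 1.42.0 was an alternative. Shares and the level of Piezo1 were compared by two-sided exact permutation tests over 20 assignments (scipy 1.17.1).

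Named between populations were the 15 highest and 15 lowest called log2 differences with 1 sign in every library and at least 50 CPM in the higher population. By genotype label, called genes with groups that do not overlap were named, or otherwise up to 5 per direction by unadjusted p. Of each list, called members by size and the most abundant members were named, and further members and the genes that DESeq2 called were named after their values were seen. The edgeR fits by genotype label in venous cells and between venous and other endothelial cells were tested on simulated data. Of genes changed by a log2 difference of 1, the fit by genotype label called 0% and the fit between populations 84.26%. At a log2 difference of 2 they called 85.79% and 100%. Gene positions are those of GENCODE on GRCm38. Some members of the lists are counted but not reported here by name.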

Additional observations from a re-analysis of the deposited data

How the results depend on the processing

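By genotype label, the count of called genes in venous cells was 0 under every alternative run except DESeq2, which called 8, and a fit with no filter on low counts, which called 214, 176 of them among the genes of the filtered fit. In the other endothelial cells DESeq2 called 2 and no filter 5. For the difference between the populations, no filter called 137 genes, and leaving out a library gave 0 to 1 (Spp1 without control 1). The 1811 genes called between venous and other endothelial cells became 299 with no library block and 656 with cells thinned to 1000 UMIs, which left 4566 genes to test, and ran from 967 (without control 2) to 1855 when a library was left out. The 1635 genes called against arterial cells became 602 after thinning, which left 4091 to test, and ran from 1071 (without control 2) to 1592. Other alternatives stayed within 1.5 times these counts, and the cause of the changes was otherwise not tested. For single genes against other endothelial cells, 77 values over all alternatives lost their call, 36 of them with no library block. The difference in share of endothelial cells ran from -14.9 to -2.31 points, and that of Piezo1 from -32.7 to 12.5 CPM, reversed without labelled knockout 2 (4.55) and 3 (12.5). Same-numbered libraries of the groups correlated over genes at 0.2909, 0.06 and 0.0909. Replicate 1 of both groups, processed with the same Cell Ranger version, deviated together, but not every number did, so the numbers were not taken as pairs. Not every library correlated best with its own number, since control 2 did so with labelled knockout 3 (0.1352). With a replicate block the count of calls was 0, the difference in share stayed at -7.47 points and that of Piezo1 at -5.21 CPM. Leaving out replicate 3 or replicate 1 of both groups, chosen after seeing the data, also gave 0 calls by genotype, and a minimum of 10 endothelial UMIs, likewise chosen later, gave 1755 calls between populations. Genes under the filter on low counts at the depth of these sums (937710 to 8515094 UMIs) were tested only in the fits with no filter. The difference in cycling venous cells, 11.4 points, was 8.69 with 1 UMI or more, 2.06 with thinned cells and 2.09 with both, all chosen after seeing the data.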
